A study of Homo sapiens with 16 samples.

Results

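Metallothioneins, their transcriptional regulator and the main zinc exporter of the plasma membrane were followed in 2 human leukemia lines exposed to Ro 08-2750 (Ro), a small molecule studied as an inhibitor of the RNA binding protein MSI2. The set held 7 of the 25221 genes in the count table, taken by symbol: MT1E, MT1F, MT1G, MT1X and MT2A among the metallothioneins, MTF1 and SLC30A1. All 7 have a row in the table, and 4 of them have counts. MT1F, MT1G and MT1X are listed at 0 in all 16 libraries.

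MOLM13 is an acute myeloid leukemia line with monocytic features (FAB subtype M5a), and K562 is an erythroid line derived from the blast crisis of chronic myelogenous leukemia. MOLM13 cells at passages 8 to 12 and K562 cells at passages 12 to 18 were given either DMSO or 20 µM Ro for 4 h, and both arms contained 0.1% DMSO. Each of the 4 groups had 4 libraries, whose titles number them as pairs 1 to 4 within a line. What the DMSO and Ro library of a pair share is not stated, and each line is a single line, so p-values measure the spread between these libraries and not between leukemias. As the RNA is from bulk cultures, fewer cells expressing a gene and less RNA per cell cannot be told apart.

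Metallothioneins are small, cysteine-rich proteins that bind zinc and copper. When free zinc rises, the zinc finger protein MTF-1 binds metal response elements in the promoters of metallothionein genes and of SLC30A1 (which encodes the exporter ZnT1), and these transcripts increase. Metallothionein mRNA is therefore widely used as a readout of metal load, and it also responds to glucocorticoids and to oxidants.

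The 5 metallothioneins of the set lie in the gene cluster on chromosome 16 (coordinates from RefSeq on GRCh38.p14, the build named in the submitters' processing notes being hg38). MT2A spans 56608584 to 56609497 and MT1E spans 56625781 to 56627112, both on the forward strand. MT1F (56657959 to 56659303) and MT1X (56682470 to 56684196) follow on the forward strand, and MT1G (56666730 to 56668065) lies on the reverse strand. MTF1 is on chromosome 1 from 37809574 to 37859592 and SLC30A1 is on chromosome 1 from 211571568 to 211579161, both on the reverse strand. In GENCODE v29 the longest coding transcript has 11 exons in MTF1, 3 in MT2A and MT1F, and 2 in the other 4 genes.

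The promoters of 3 members are printed because 2 of the genes, MT2A and SLC30A1, were highest in the same K562 libraries, while MT1X has no counts. Each line is the 250 bases before the RefSeq start, on the strand of the gene. Capitals mark matches on either strand to the core of the metal response element, searched as TGCACNC and TGCGCNC.
MT2A (chr16:56608334-56608583): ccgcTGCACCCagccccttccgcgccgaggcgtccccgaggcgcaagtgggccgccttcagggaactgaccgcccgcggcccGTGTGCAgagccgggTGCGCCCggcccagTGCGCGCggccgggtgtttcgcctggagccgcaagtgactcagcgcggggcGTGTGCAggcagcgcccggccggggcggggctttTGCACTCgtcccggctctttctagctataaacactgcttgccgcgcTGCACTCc
MT1X (chr16:56682220-56682469): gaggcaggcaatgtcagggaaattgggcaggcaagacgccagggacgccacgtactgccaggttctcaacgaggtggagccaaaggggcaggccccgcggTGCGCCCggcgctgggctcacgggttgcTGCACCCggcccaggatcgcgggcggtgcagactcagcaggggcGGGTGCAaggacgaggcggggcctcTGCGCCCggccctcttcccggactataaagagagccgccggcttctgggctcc
SLC30A1 (chr1:211579162-211579411): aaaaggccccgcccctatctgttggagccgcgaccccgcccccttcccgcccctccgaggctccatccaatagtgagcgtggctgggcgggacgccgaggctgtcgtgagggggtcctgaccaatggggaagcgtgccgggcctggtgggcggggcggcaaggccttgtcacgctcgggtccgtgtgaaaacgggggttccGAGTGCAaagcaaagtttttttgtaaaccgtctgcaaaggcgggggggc
The MT2A stretch held 7 matches, MT1X held 4, SLC30A1 held 1 and MTF1 held 0. Of the 35116 promoters of the same length in the RefSeq table, 24.8% held at least 1 match, 0.37% at least 4 and 0.0313% at least 7. A match is a description of the letters and not a measured site, and the table has no entry for MT1E, MT1F and MT1G.

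Total counts per library ranged from 3143129 to 43571060, and 3 counts in a library corresponded to between 0.0671 and 0.872 CPM, the count scaled to a common library size. CPM values here use library sizes scaled by TMM, edgeR's correction for differences in composition. The kit reads mostly the 3′ end of each mRNA, so a count does not grow with transcript length and CPM values of different genes are on 1 scale per transcript. Libraries of the same group differed by more than counting noise, since chi-square divided by its degrees of freedom was never below 10.1. The erythroid markers GATA1, KLF1, TAL1, HBG1, HBG2 and HBZ were higher in every K562 library than in any MOLM13 library, and so were 5 of the 7 myeloid markers in MOLM13, whereas CD33 and LYZ overlapped. HOXA9 had 0 counts in all K562 libraries.

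In MOLM13, the expressed metallothioneins were abundant and differed little between libraries. MT1E was at 103, 89.0, 125 and 89.5 CPM in DMSO pairs 1 to 4 and at 95.7, 91.5, 105 and 106 CPM in the Ro libraries of the same pairs. The arms overlapped, and no library stood apart. MT2A, the metallothionein that is usually the most abundant, was at 153, 192, 279 and 123 CPM with DMSO and at 119, 198, 240 and 124 CPM with Ro. Pair 3 was highest and pairs 1 and 4 were lowest in either arm, and the change between arms was smaller than the spread between pairs.

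In K562, both genes differed widely between libraries of the same group. MT1E was at 32.8, 18.9, 0.601 and 503 CPM in DMSO pairs 1 to 4, and at 1.67, 0.794, 1.18 and 465 CPM in Ro pairs 1 to 4. Pair 4 was high in both arms, the DMSO libraries of pairs 1 and 2 were intermediate, and the remaining 4 libraries were near 1 CPM, so the 8 libraries spanned 838-fold. MT2A was at 78.7, 43.6, 16.2 and 973 CPM with DMSO and at 26.4, 9.47, 17.0 and 898 CPM with Ro. The order of the libraries was nearly the same as for MT1E, over a 103-fold range. The intermediate libraries included the largest and the smallest of the series, with 1467 MT1E counts in DMSO pair 1 and 65 in DMSO pair 2.

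**Figure D1:**
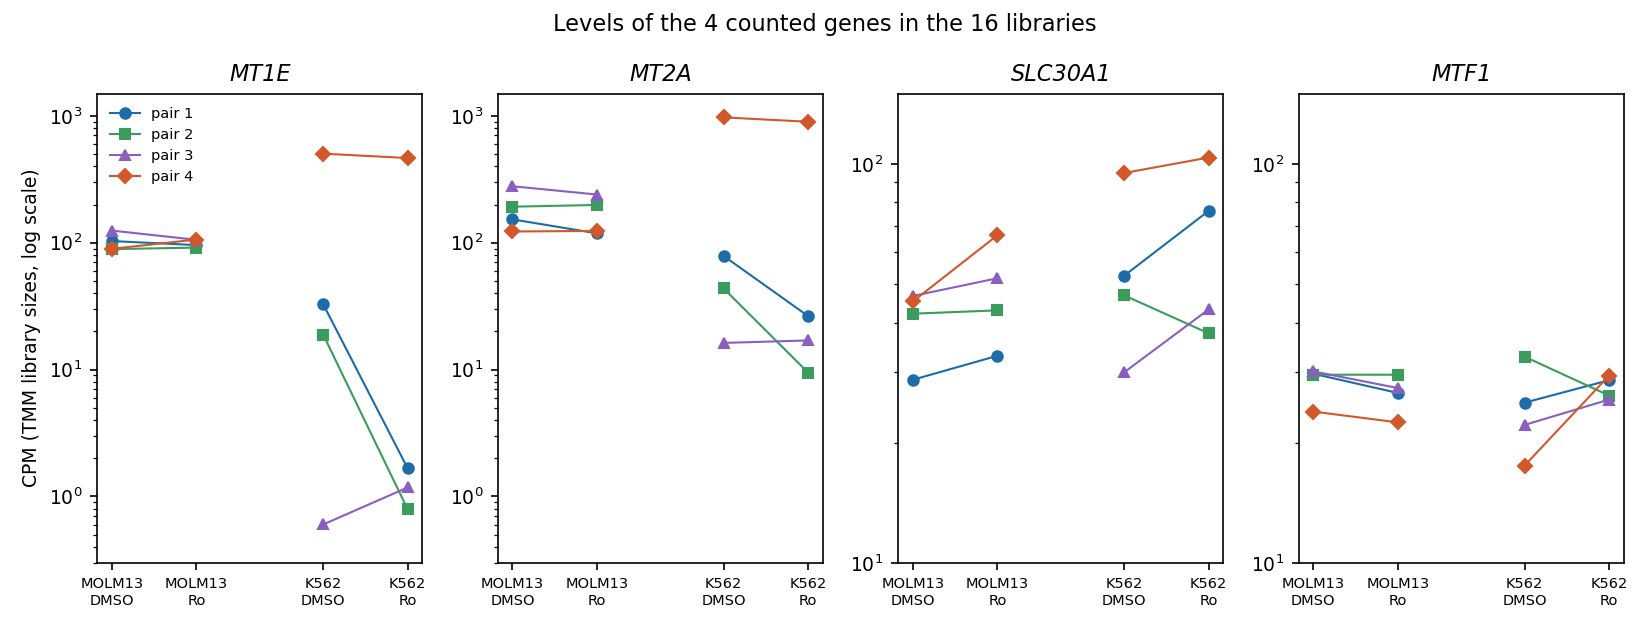
Level of MT1E, MT2A, SLC30A1 and MTF1 in CPM (TMM library sizes, log scale) in each library, with a line joining the DMSO and Ro library of a pair. MOLM13 values of MT1E lie between 89.0 and 125 CPM, whereas K562 values run from 0.601 to 503 CPM with pair 4 highest in both arms; the MTF1 axis range is the same as that of SLC30A1.

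SLC30A1, which moves zinc out of the cytosol, was at 28.8, 42.1, 46.6 and 45.2 CPM in MOLM13 with DMSO and at 33.0, 42.9, 51.7 and 66.2 CPM with Ro. Every MOLM13 pair was higher with Ro, by between 0.03 and 0.55 on the log2 scale, although the arms overlapped. In K562 it was at 52.4, 46.8, 30.0 and 94.8 CPM with DMSO and at 76.2, 37.6, 43.1 and 104 CPM with Ro. K562 pair 4 was again the highest in both arms, and 3 of the 4 pairs were higher with Ro.

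MTF1, the zinc-sensing regulator, varied least. It was at 29.8, 29.6, 30.2 and 23.9 CPM in MOLM13 with DMSO and at 26.6, 29.6, 27.4 and 22.5 CPM with Ro. In K562 it was at 25.2, 32.9, 22.2 and 17.5 CPM with DMSO and at 28.7, 26.3, 25.6 and 29.4 CPM with Ro. K562 pair 4, high for the metallothioneins, had the lowest MTF1 value of all 16 libraries in its DMSO arm. That value came from 100 counts in the library with the largest TMM factor (1.30), and its rank depends on this scaling.

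Ordered by group medians, MT1E was highest in MOLM13 Ro (101 CPM), followed by MOLM13 DMSO (96.3), K562 DMSO (25.8) and K562 Ro (1.42). MT2A had the order MOLM13 DMSO (172), MOLM13 Ro (161), K562 DMSO (61.1) and K562 Ro (21.7). The order for SLC30A1 was K562 Ro (59.6), K562 DMSO (49.6), MOLM13 Ro (47.3) and MOLM13 DMSO (43.6), and that for MTF1 was MOLM13 DMSO (29.7), K562 Ro (27.5), MOLM13 Ro (27.0) and K562 DMSO (23.7). In none of these 4 orders did neighbouring groups separate, since their ranges overlapped. For MT1E and MT2A the ranges of the 2 lines overlapped only through K562 pair 4, which was above every MOLM13 library. The other K562 libraries were at most at 32.8 CPM for MT1E and 78.7 CPM for MT2A. MOLM13 libraries were at least at 89.0 and 119 CPM.

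The remaining 3 metallothioneins of the set gave no signal. MT1F, MT1G and MT1X had 0 counts in every library, which allows a level of up to 0.0671 CPM in the deepest library and 0.872 CPM in the shallowest, by counting error only. They share this with 5180 genes (20.5% of the table), but the zeros are contiguous along the chromosome. Of the 12 genes of the cluster between MT4 and MT1X that have a row, the 6 from MT1B to MT1X (56651886 to 56684196, 32.3 kb) had 0 counts, including MT1B, MT1H and the pseudogene MT1IP, while the 6 before them, MT4, MT3, MT2A, MT1E, MT1M and MT1A, all had counts. The 3′ ends of MT1F and MT1X shared no exact word of 50 bases with another gene in GENCODE v29. Of the 151 words in the last 200 bases of their longest coding transcript, 0 occur in a transcript of another gene. Near matches and the ends of other transcripts of these genes were not searched. For MT1G 22 of 151 words are shared, for MT1E 5 and for MT2A 1. The counting program and its annotation are not given in the sources used here, so genes without transcripts and genes whose reads were not counted cannot be told apart, and MT1F, MT1G and MT1X are treated as listed at 0.

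Ro against DMSO asked whether 4 h of Ro moved this metal readout. Each line was fitted with edgeR's quasi-likelihood test and Benjamini-Hochberg adjustment, over genes that reached 10 counts in 4 or more libraries. In MOLM13 the fit called 0 of 15031 genes at an adjusted p under 0.05 (0% of genes; 1.16% had an unadjusted p under 0.05, and DESeq2 called 1 gene), and none of the 4 counted members was called. MT1E differed by -0.01 on the log2 scale (SE 0.14), MT2A by -0.12 (SE 0.29), MTF1 by -0.08 (SE 0.15) and SLC30A1 by 0.26 (SE 0.22), each with an adjusted p of 1.00.

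With the replicate block, a term for the pair number, 317 MOLM13 genes were called (2.11% of genes), again without a member. The spread was smaller in this fit: MT1E differed by 0.00 (SE 0.08) and MT2A by -0.11 (SE 0.08, adjusted p = 0.479). SLC30A1 came nearest, at 0.26 (SE 0.09, unadjusted p = 0.00666, adjusted p = 0.123), higher in 4 of 4 pairs. Without pair 4 it was 0.13 in the paired fit (SE 0.09, unadjusted p = 0.142), and without the Ro library of pair 4 it was 0.08 in the unblocked fit. Of all MOLM13 genes tested, 10.2% were higher with Ro in all 4 pairs, and 17.2% had an unadjusted p under 0.05 in the paired fit. MTF1 was lower in 4 of 4 pairs, by between 0.00 and 0.16 on the log2 scale, where 14.9% of genes were lower in all 4, and its adjusted p was 0.677.

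In K562 the fit called 0 of 15227 genes (0% of genes; 1.23% had an unadjusted p under 0.05, and DESeq2 also called 0 but gave no p-value for MT1E and MT2A). MT1E differed by -0.23 (SE 1.82), MT2A by -0.22 (SE 1.42), SLC30A1 by 0.23 (SE 0.37) and MTF1 by 0.19 (SE 0.19), again each with an adjusted p of 1.00. The SE was larger than the difference for MT1E, MT2A and SLC30A1 and about equal to it for MTF1. With the replicate block K562 also had 0 calls (2.11% of genes at an unadjusted p under 0.05), and the MT1E difference became -1.91 (SE 0.88, unadjusted p = 0.0608) and that of MT2A -0.92 (SE 0.36, unadjusted p = 0.0352), both with an adjusted p of 0.947. The paired estimates of MTF1 and SLC30A1 were 0.21 (SE 0.18) and 0.24 (SE 0.17). No counted member was higher or lower with Ro in all 4 K562 pairs, where 6.84% of genes were higher and 4.65% lower in all 4.

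The K562 pairs differed from each other. MT1E changed by -4.22 and -4.41 on the log2 scale in pairs 1 and 2, by 0.86 in pair 3 and by -0.11 in pair 4. MT2A changed by -1.57 and -2.19 in pairs 1 and 2, by 0.06 in pair 3 and by -0.12 in pair 4. The changes over 1 on the log2 scale were thus in the 2 pairs whose DMSO library was intermediate, and pair 4 was lower with Ro by little for both genes. Pair 2, with the most negative changes of both genes, was also the K562 pair whose libraries were least alike across all genes (correlation of deviations 0.109). The counts summed over all metallothionein rows gave by-pair changes of -1.94, -2.41, 0.10 and -0.12.

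Without both libraries of pair 4, MT1E differed by -3.85 (SE 1.04) and MT2A by -1.40 (SE 0.51) between the K562 arms, still with an adjusted p of 1.00. Without the DMSO library of pair 4 alone the differences turned to 2.78 and 2.38, and without its Ro library alone they were -6.87 and -4.00. Keeping only pairs 1 and 3 in the paired fit called 418 genes of 13667. MT1E differed by -2.81 (SE 0.25), MT2A by -0.83 (SE 0.11) and SLC30A1 by 0.52 (SE 0.10), all called. These calls rest on 2 pairs. MT1E changed in them by -4.22 and 0.86, MT2A by -1.57 and 0.06, and SLC30A1 by 0.54 and 0.52. For MT1E and MT2A the SE of this fit does not reflect the spread between the 2 pairs. Their calls thus do not show a change shared by both pairs.

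**Figure D2:**
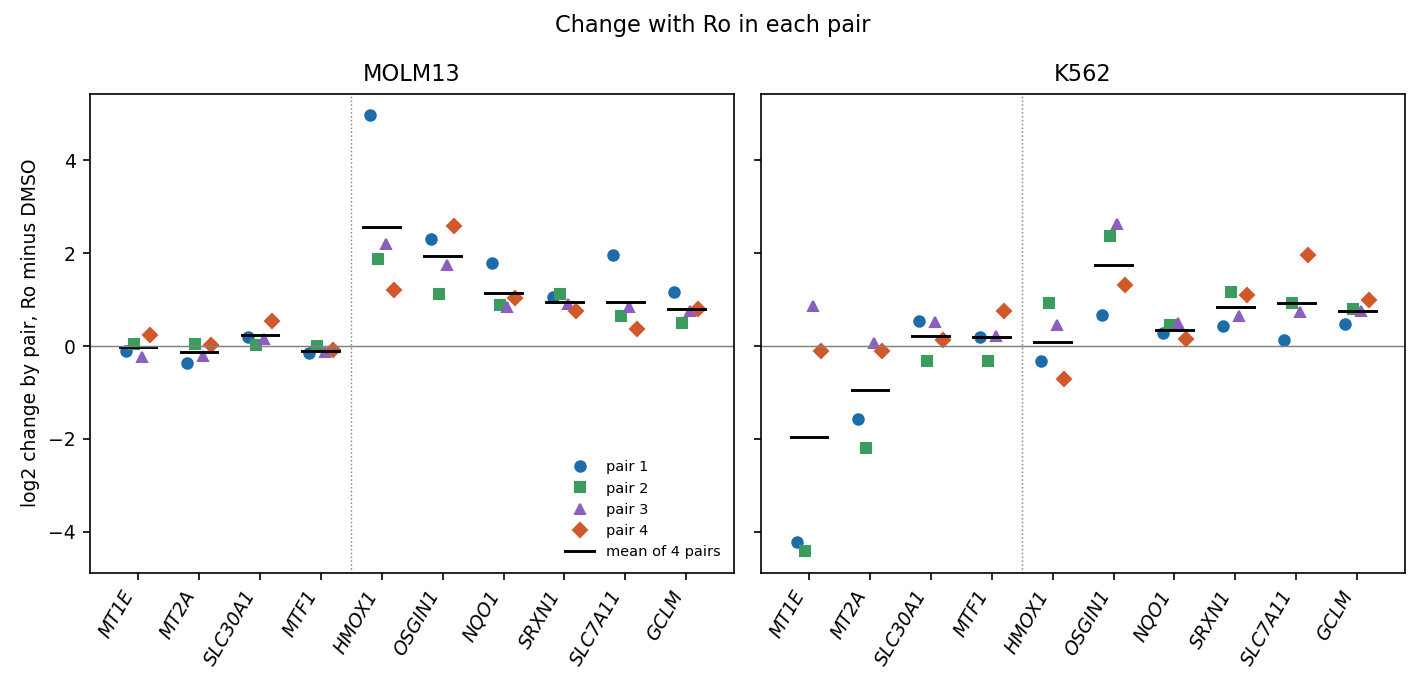
log2 change (Ro minus DMSO, prior count of 2) in each pair for the 4 counted genes, left of the dotted line, and for the 6 metal and thiol stress genes called in the paired MOLM13 fit, right of it. Horizontal bars are means of 4 pairs. In MOLM13 the metallothionein points lie between -0.37 and 0.24, while HMOX1 lies between 1.22 and 4.97; in K562 MT1E lies at -4.22 and -4.41 in pairs 1 and 2 and at 0.86 and -0.11 in pairs 3 and 4.

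The effect of Ro was not shown to differ between the lines for any member. The interaction of line and treatment, fitted on all 16 libraries, called 0 of 16224 genes (0% of genes; 1.34% had an unadjusted p under 0.05, and DESeq2 called 0, again without a p-value for MT1E and MT2A). K562 minus MOLM13, the Ro effect differed by -0.21 (SE 2.02) for MT1E and by -0.09 (SE 1.60) for MT2A. In the paired fit, which also called 0 genes (6.01% at an unadjusted p under 0.05), the difference was -1.83 for MT1E (SE 0.84, unadjusted p = 0.0484, adjusted p = 0.766) and -0.77 for MT2A (SE 0.40, adjusted p = 0.766). SLC30A1 differed by -0.02 (SE 0.47) and by 0.00 in the paired fit (SE 0.20), and MTF1 by 0.28 (SE 0.25) and 0.30 (SE 0.20). Without K562 pair 4, the paired difference of MT1E was -3.27 (SE 0.60, unadjusted p = 5.77e-05, adjusted p = 0.267).

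The 2 metallothioneins kept a steady ratio wherever they were abundant. MT2A counts were between 1.17 and 2.28 times the MT1E counts in the 8 MOLM13 libraries, with pairs 2 and 3 above 2.1 and pairs 1 and 4 below 1.5 in both arms. In K562 pair 4 the ratio was 1.93 in either arm, and in the DMSO libraries of pairs 1 and 2 it was 2.40 and 2.31. In the 4 K562 libraries with little MT1E it was between 11.9 and 27.0, highest in DMSO pair 3, where MT1E had 15 counts and MT2A 405. MT2A thus stayed at 9.47 CPM or more in every K562 library, while MT1E went down to 0.601 CPM.

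**Figure D3:**
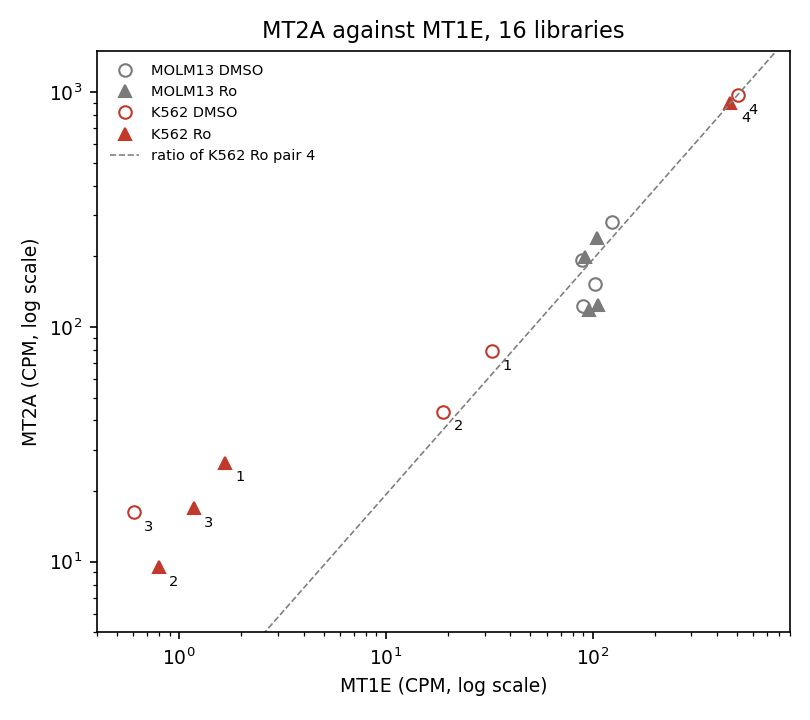
MT2A against MT1E in CPM, both on log axes, for the 16 libraries, with K562 libraries numbered by pair and a dashed line at the MT2A to MT1E ratio of the K562 Ro library of pair 4. The MOLM13 libraries form 1 cloud, whereas K562 libraries lie along the dashed line from pair 2 (DMSO) to pair 4 and above it at the low end, where ratios run from 11.9 to 27.0.

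Within lines, MT1E and MT2A had a Pearson correlation of 0.96 over the 16 libraries on log2 CPM centred within line, 0.85 without K562 pair 4, and 0.49 over the 8 MOLM13 libraries. SLC30A1 had a correlation of 0.74 with MT2A over 16 libraries, and of 0.36 without K562 pair 4. MTF1 had -0.19 with MT2A over 16 libraries and 0.43 without that pair. These points share cell line and pair, so the values are descriptions with no p.

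K562 pair 4 stood apart most in these genes. Ranked by the smaller of its margins over the highest other library in the DMSO and in the Ro arm, MT1E was 1st and MT2A 2nd of 15620 genes with a symbol, with margins of 3.94 and 3.63 on the log2 scale. MT1A was 21st (1.41), SLC30A1 was 333rd (0.44) and MTF1 was 11826th (-0.90), and 51 genes had a margin over 1. The same number of genes was 3, 1 and 3 for K562 pairs 1 to 3, and 8, 2, 3 and 235 for MOLM13 pairs 1 to 4. This ranking was made after the values had been seen and carries no test. Of the 7 myeloid markers, MEIS1 was at 49.2 CPM in the DMSO library of pair 4 and at 19.5 CPM in its Ro library, against 16.6 to 23.5 CPM in the other K562 libraries and at least 78.5 CPM in MOLM13. SPI1 was at 10.9 and 6.00 CPM in pair 4, against 3.49 to 6.14 CPM in the other K562 libraries and at least 12.7 CPM in MOLM13. FLT3 was at 3.86 and 3.38 CPM in pair 4, against 1.67 to 4.14 CPM and at least 141 CPM. MEIS1 and SPI1 were thus above the other K562 pairs in the DMSO library of pair 4 only, and FLT3 was within their range. HOXA9 had 0 counts in both pair 4 libraries, MPO was at 0 and 0.197 CPM (0 to 0.170 in the other pairs), CD33 at 15.6 and 17.9 CPM (8.81 to 17.7), and LYZ at 18.8 and 31.9 CPM (7.82 to 30.6). The erythroid factor GATA1 was at 76.8 and 75.4 CPM in pair 4 and at 36.6 to 70.5 CPM in the other pairs. Among other erythroid markers, KLF1 was also higher in pair 4 (135 to 219 CPM against 83.1 to 125), while HBG1 (78.9 to 81.3 against 171 to 231) and HBG2 (1008 to 1195 against 1333 to 2203) were lower, and TAL1 and HBZ overlapped the other pairs. The part of these differences in the metallothionein levels was not tested.

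Other genes shared the profile of the members to a degree. The 5 genes most correlated with the mean of MT1E and MT2A over the 16 libraries, centred within line, were PRR29 (r = 0.91), GNB1L (0.91), CHPF2 (0.91), KIAA1024 (0.90) and PRSS2 (0.89). Without K562 pair 4 the same correlations were 0.70, 0.72, 0.69, 0.63 and 0.39, lowest for PRSS2. In K562 pairs 1 to 3 GNB1L was at 66.5 to 82.3 CPM and CHPF2 at 3.12 to 6.98 CPM. PRR29 was at 1.30 to 3.02 CPM there, KIAA1024 at 0.510 to 0.872 and PRSS2 at 0.325 to 0.693. The correlations of these low genes rest on few counts in the smaller libraries. Nearest to SLC30A1 were GLB1 (0.91), NSUN4 (0.90) and MBOAT7 (0.90), which had 0.87, 0.91 and 0.85 without pair 4. The genes nearest to MTF1 were MTERF1 (0.91), FOXO3 (0.90) and TAF1D (0.90), with 0.88, 0.81 and 0.80 without it.

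Of the 10 other metallothioneins listed for comparison, 7 have a row, 2 of these (MT1B and MT1H) are at 0 throughout, and 2 passed the count filter. MT1A was low in both lines, with medians of 2.43 and 2.38 CPM in MOLM13 DMSO and Ro and 1.60 and 1.53 CPM in K562, and its highest values were in K562 pair 4 (5.43 and 4.26 CPM). MT1HL1 had 66 counts in all, of which 49 were in the Ro library and 9 in the DMSO library of K562 pair 4. MT4, at 1.45 ± 0.850 CPM (SD, n = 4) in MOLM13 DMSO and 0.310 ± 0.281 CPM in K562 DMSO, and MT1A were not called with Ro in either line, with or without the block. Between the lines without Ro, 1 of the 2 was called lower in K562, where 41.3% of all genes were called. The same count held with the block (37.6% of all genes) and without the K562 DMSO library of pair 4 (42.7%).

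K562 DMSO against MOLM13 DMSO asked how far the lines differ without Ro. The fit called 6313 of 15268 genes (41.3% of genes; 48.6% had an unadjusted p under 0.05), and none of the 4 counted members was among them. With the block 37.6% of genes were called and 45.8% had an unadjusted p under 0.05, again with 0 members called. In this contrast the block joins libraries of different lines that share only a number (mean correlation of same-numbered libraries -0.04), so its values are given as an alternative only. K562 minus MOLM13, MT1E differed by 0.44 (SE 1.09, adjusted p = 0.785), MT2A by 0.57 (SE 0.90, adjusted p = 0.655), SLC30A1 by 0.44 (SE 0.31, adjusted p = 0.272) and MTF1 by -0.23 (SE 0.22, adjusted p = 0.442). For the metallothioneins the direction was not stable. With the block the differences were -1.98 for MT1E (SE 1.28) and -1.30 for MT2A (SE 0.98). Without the K562 DMSO library of pair 4, where 42.7% of 15022 genes were called, MT1E was lower in K562 by -2.56 (SE 0.78, adjusted p = 0.0189) and MT2A by -2.03 (SE 0.45, adjusted p = 0.00306). Without that library SLC30A1 differed by 0.06 (SE 0.23) and MTF1 by -0.11 (SE 0.20), and neither was called.

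Zinc transporters differed between the lines in both directions. Of 9 further exporters of the SLC30 family 8 were tested, 3 were higher and 1 lower in K562 (4 of 8, where 41.3% of all genes were called), with a median difference of 0.39 against 0.00 over all genes. SLC30A3, a vesicular zinc transporter, was higher by 3.96 (SE 0.53, adjusted p = 3.97e-05) with MOLM13 libraries between 0.0496 and 0.315 CPM and K562 libraries between 1.63 and 4.91 CPM. SLC30A10, a manganese exporter, was higher by 1.25 (SE 0.24) and SLC30A5 by 0.67 (SE 0.19), whereas SLC30A7, which loads zinc into the Golgi, was lower by -0.72 (SE 0.23). SLC30A9, the most abundant of this family here at a mean of 68.2 CPM over the 16 libraries, differed by 0.10 (SE 0.21) and was not called.

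Among 14 importers of the SLC39 family 12 were tested, 3 were higher and 5 lower in K562 (66.7% of those tested, against 41.3% of all genes), with a median of 0.20. With the block 6 of 12 were called, where 37.6% of all genes were. SLC39A7, which releases zinc from the endoplasmic reticulum, was at 88.2 ± 14.8 CPM (SD, n = 4) in MOLM13 DMSO and 229 ± 52.7 CPM in K562 DMSO (difference 1.37, SE 0.23, adjusted p = 0.000315). SLC39A10, an importer of the plasma membrane, was at 95.5 ± 16.0 and 35.8 ± 8.66 CPM (difference -1.42, SE 0.23, adjusted p = 0.000263). SLC39A11 was lower by -1.46 (SE 0.22), SLC39A14 by -0.69 (SE 0.23), SLC39A6 by -0.66 (SE 0.21) and SLC39A8 by -0.66 (SE 0.23), while SLC39A3 and SLC39A1 were higher by 1.11 (SE 0.25) and 0.98 (SE 0.28). SLC39A6 and SLC39A14 were not called in the blocked fit, and SLC39A8 was not called without the K562 DMSO library of pair 4. SLC30A3 was not tested without that library.

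With Ro, 0 of the 7 exporters and 0 of the 12 importers tested in MOLM13 were called, with or without the block, and the same held for the 8 exporters and 12 importers tested in K562. Exporter medians were 0.02 in MOLM13 and 0.03 in K562, importer medians were -0.13 and 0.05, and medians over all genes were 0.00 and 0.02.

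**Figure D4:**
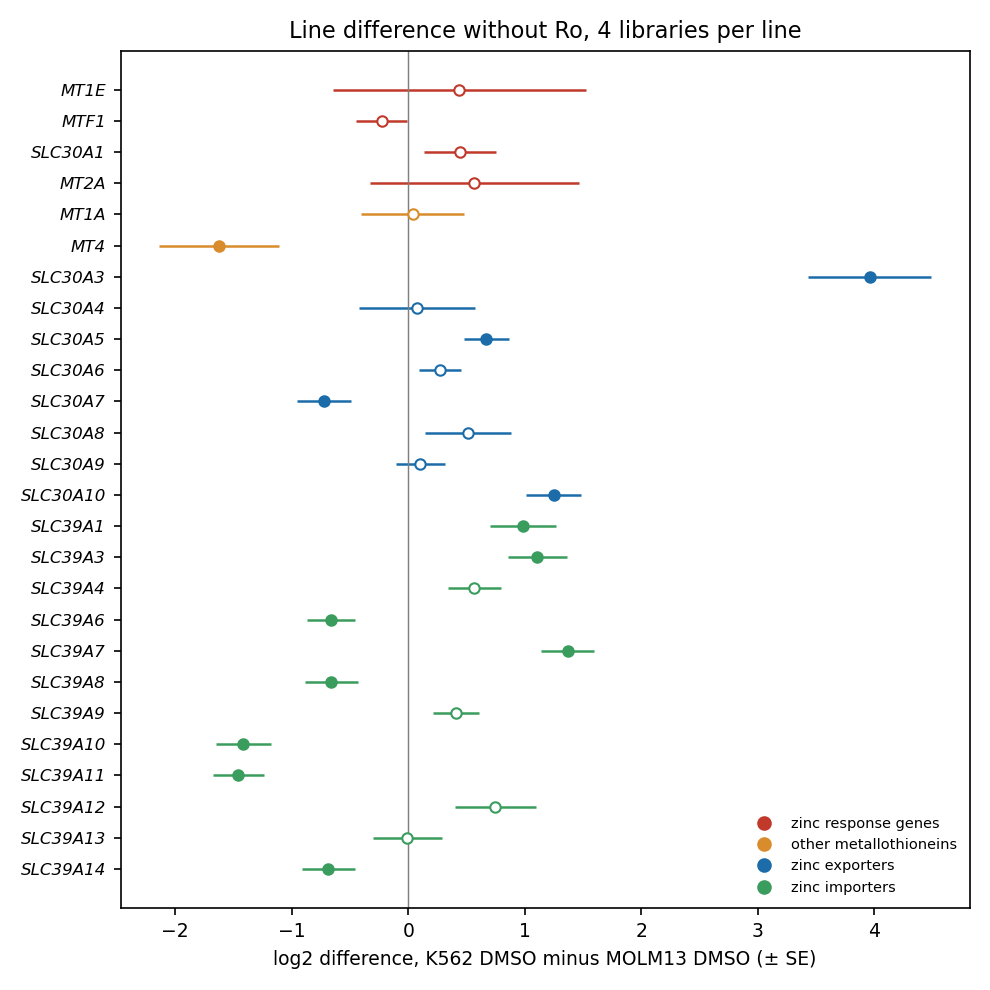
log2 difference between lines without Ro (K562 minus MOLM13, ± SE, 4 libraries per line) for the 4 counted genes of the set, 2 other metallothioneins and the zinc transporters that passed the count filter. Filled points passed an adjusted p of 0.05; MT1E and MT2A have SEs of 1.09 and 0.90 against 0.18 to 0.53 among the zinc exporters.

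Copper handling genes, of which 12 were tested, showed 0 calls with Ro in either line, with or without the block, and medians of -0.04 in MOLM13 and 0.07 in K562. Between the lines 2 were higher and 3 lower in K562, which is 41.7% of those tested against 41.3% of all genes. The copper pumps ATP7A and ATP7B went opposite ways, by 1.64 (SE 0.27) and -0.86 (SE 0.21). The copper chaperone CCS was higher by 0.65 (SE 0.23), and SCO1 and SLC31A2 were lower by -0.72 (SE 0.21) and -1.25 (SE 0.42). CCS was not called without the K562 DMSO library of pair 4.

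Genes of metal and thiol stress outside the metallothionein family were counted in MOLM13 as well; whether they differ from the members was not tested. In the paired fit 6 of 12 were called, against 2.11% of all genes, all higher with Ro, with a list median of 0.54 against 0.00 over all genes, whereas 0 of 12 were called without the block. As the list was chosen with earlier results of these data known, this share is a description and no test of the list. HMOX1, which encodes heme oxygenase 1, was at 9.54, 51.4, 64.4 and 2.64 CPM with DMSO and at 302, 190, 295 and 6.26 CPM with Ro. It was higher in 4 of 4 pairs, by 2.51 in the paired fit (SE 0.28, adjusted p = 2.92e-05), although pair 4 was low in both arms. OSGIN1 rose by 2.04 (SE 0.30), NQO1 by 1.11 (SE 0.11), SRXN1 by 0.97 (SE 0.08), SLC7A11 by 0.85 (SE 0.15) and GCLM by 0.81 (SE 0.09) in that fit. The heat shock genes HSPA1A, HSPA1B, DNAJB1 and HSPH1, the thioredoxin reductase gene TXNRD1 and GCLC were not called.

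In K562 the same list had 0 calls in either fit, with medians of 0.32 and, in the paired fit, 0.35. HMOX1 was low there, at 1.63, 0.581, 1.28 and 2.98 CPM with DMSO and at 1.29, 1.19, 1.79 and 1.77 CPM with Ro. GCLM was higher with Ro in all 4 K562 pairs, by 0.47, 0.79, 0.76 and 0.98 in pairs 1 to 4, and SRXN1 by 0.43, 1.17, 0.66 and 1.10, where 6.84% of all genes were higher in all 4. OSGIN1 (mean change 1.74), SLC7A11 (0.93), HSPA1B (0.52) and NQO1 (0.35) were also higher in all 4 K562 pairs. GCLC, TXNRD1, HSPA1A and DNAJB1 were higher in 3 of the 4 pairs, and HMOX1 and HSPH1 in 2. Without Ro, 9 of the 12 genes differed between the lines (75.0%, against 41.3% of all genes), 6 of them higher in K562. With the block 8 differed (66.7%, against 37.6% of all genes), TXNRD1 being the one not called. HMOX1 was lower in K562 by -4.30 (SE 0.84, adjusted p = 0.000972). HSPA1A and HSPA1B are near-identical copies, and how reads were divided between them is not known.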

How the data were processed

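RNA from 16 samples was sequenced with QuantSeq 3′ mRNA-Seq FWD libraries (Lexogen) on a HiSeq 2000. The deposited values are raw counts per gene, which the authors made from reads trimmed with Trim Galore and aligned to hg38 with STAR 2.5.3a and SAMtools 1.5, per the submitters' processing notes. The counting program and annotation are not given in the sources used here. Groups came from the sample labels.

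Counts were tested with edgeR 4.0.16 (R 4.3.3; TMM, quasi-likelihood F test, two-sided, Benjamini-Hochberg over all genes tested, threshold 0.05) over genes that reached 10 counts in 4 or more libraries. Each line was fitted alone, the interaction used 16 libraries and the line contrast used the 8 DMSO libraries. The SE of an edgeR difference was calculated as its absolute value divided by the square root of F. The edgeR and DESeq2 fits of each contrast, with and without the replicate block, were tested on simulated data. Fits with libraries left out, other filters or other scalings were not simulated. By-pair changes used a prior count of 2. Alternatives were the replicate block, DESeq2 1.42.0, other filters and scalings, and leaving out libraries. The fits without both libraries of K562 pair 4 were chosen after seeing the data. Within a line, the DMSO and Ro libraries of a number deviated together from their group means in every pair (correlation 0.385 to 0.831 in MOLM13 and 0.109 to 0.416 in K562), so the numbers were taken to pair libraries, a pairing that rests on the titles and the data. In K562 pair 2 (correlation 0.109) at least 1 library correlated better with another number than with its own. Across lines the mean correlation was -0.04, so numbers pair nothing there.

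The genes and comparison lists were chosen with earlier results of these data known. Named genes were the members, list genes called in a fit, examples with the highest mean, and the genes most correlated with the members. The level of 1 marker gene is not reported here.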

Additional observations from a re-analysis of the deposited data

Results flagged for a closer look

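In 5 of 16 groups of 4 libraries (4 genes in 4 groups), 1 library lay far from the other 3 by Dixon's criterion. Chance gives about 1 in 20 groups if values are normally distributed, which was not checked. The criterion was applied to CPM and not to log2 CPM, so flags in groups with a wide range can depend on the scale. In K562 pair 4, MT1E was at 503 CPM in the DMSO library and at 465 CPM in the Ro library, and MT2A was at 973 and 898 CPM. These 4 values come from 1 pair and are not independent of each other. The fifth was MTF1 in the MOLM13 DMSO library of pair 4, which was low at 23.9 CPM. No cause was tested.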

How the results depend on the processing

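Of 320 alternative values of member differences, 47 turned direction. MT1E, MT2A and SLC30A1 became called in K562 with pairs 1 and 3, where the SEs of MT1E and MT2A do not reflect the spread between pairs. MT1E and MT2A became called between lines without the K562 DMSO library of pair 4. No other alternative called a member. DESeq2 without the block gave no p-value for MT1E and MT2A in K562, the interaction and the line contrast. With the replicate block the MOLM13 count was 317, with DESeq2 it was 1, with DESeq2 and the block 266, and 106, 187, 49 and 358 when the paired fit lost pair 1, 2, 3 or 4. K562 gave 2 with DESeq2 and the block and 418 with pairs 1 and 3, and the interaction gave 3 with DESeq2 and the block. Near zero, the MOLM13 difference of MT1E turned to 0.0015 with the block or a minimum of 50 counts and to 0.046 with total counts as library sizes. The SLC30A1 interaction turned to 0.0031 with the block, 0.016 with DESeq2 and the block, and 0.063 with the block without K562 pair 4. Between lines, MT1E turned to -1.98 and MT2A to -1.30 with the block (-2.02 and -1.32 in DESeq2), and MTF1 to 0.16 with total counts, which moved the median of all genes by 0.41 and the calls from 3098 higher and 3215 lower to 5008 and 2023. The block changed no call of a member.

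Leaving out 1 library gave MOLM13 differences of -0.075 to 0.094 for MT1E (0.027 and 0.076 with the block without pair 1 or 3), -0.33 to 0.13 for MT2A, 0.084 to 0.40 for SLC30A1 and -0.16 to -0.0016 for MTF1, and K562 differences of -6.87 to 2.78 for MT1E, -4.00 to 2.38 for MT2A and -0.10 to 0.62 for SLC30A1. The interaction ran from -6.81 to 2.81, -3.84 to 2.52 and -0.34 to 0.36 for the same genes, and the line difference from -2.56 to 0.86 for MT1E and -2.03 to 0.96 for MT2A. In K562 the high ends for MT1E and MT2A came from leaving out the DMSO library of pair 4. The low ends came from leaving out its Ro library. Without any other single K562 library, MT1E differed by -0.66 to 0.17 and MT2A by -0.62 to 0.17. The cause of the pair 4 levels was not tested. The lowest single counts of a counted member were those of MT1E, with 14 to 29 in 4 K562 libraries. The total counts of these libraries ranged from 13950949 to 20994972. The smallest library, K562 DMSO pair 2 with a total of 3143129, had 65 MT1E counts.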
